A study of Mus musculus with 5 samples.

Results

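Receptor-mediated transport receptors of the blood-brain barrier were described here as a set of 9 genes, Tfrc, Lrp1, Lrp8, Lepr, Ager, Igf2r, Scarb1, Stra6 and Cd36. The members were chosen by name, and each symbol matched 1 Ensembl gene of the NCBIM37 annotation, so that the set made up 9 of the 34615 gene symbols measured. The RNA came from brain microvascular fragments of male C57BL6 mice aged 26 to 38 weeks, which were 3 wild-type littermate controls (WT) and 2 heterozygous Ins2-AKITA mice. The fragments were released with collagenase and captured on beads carrying an antibody to PECAM1, and total RNA depleted of ribosomal RNA was sequenced. The Ins2-AKITA allele is a point mutation in 1 copy of an insulin gene. The misfolded insulin kills pancreatic beta cells, and the mice become hyperglycemic, so that the brain vessels carry the allele but are exposed to its effect through the blood. A point mutation is not visible in expression values, and the genotype labels could not be checked from these data. The comparison of both genotypes asks whether long-term hyperglycemia alters the transcriptome of the brain microvasculature.

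The endothelium of brain capillaries lets few large molecules through, and those that enter are mostly carried by receptors. A ligand binds its receptor on the blood side, the complex is taken up in coated pits, and it is then released towards the brain, recycled or sent to lysosomes. Transferrin receptor (Tfrc) carries iron-loaded transferrin. Lrp1 and Lrp8 belong to the LDL receptor family and bind apolipoprotein E and other ligands. Lepr binds leptin, Igf2r binds insulin-like growth factor 2 and mannose 6-phosphate tagged enzymes, and Ager is the receptor for advanced glycation end products, which also binds S100 proteins, HMGB1 and amyloid beta. Scarb1 takes up lipid from high-density lipoprotein, Stra6 takes up retinol from its carrier RBP4, and Cd36 is a scavenger receptor that also binds long-chain fatty acids.

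Values are FPKM, that is fragments scaled to transcript length and to the number of mapped fragments, so levels of different genes can be compared per length. The steps between low values gave an estimate of 1129592 to 2860100 fragments per mouse, with the highest value in WT mouse 3. Protein-coding genes made up 2.88 to 25.5% of the summed FPKM of a mouse, and other gene types the rest. All 10 endothelial markers, such as Pecam1, Cldn5 and Flt1, were above 1 FPKM in all 5 mice. RNA of other cells was also present, as the 7 astrocyte markers summed to 2118 to 3933 FPKM and the 10 endothelial markers to 356 to 738 FPKM. The summed endothelial markers ran from 438 to 738 FPKM in WT mice and from 356 to 485 FPKM in Ins2-AKITA mice, and 9 of the 10 had a log2 fold change below 0, with a median of -0.39 that became 1.16 as TPM, a scaling in which every mouse has the same sum over all genes. The astrocyte sum was 2118 to 2927 FPKM in WT and 3338 to 3933 FPKM in Ins2-AKITA mice, without overlap, and 7 of 7 astrocyte markers had a log2 fold change above 0. Smooth muscle markers summed to 212 to 249 FPKM in WT and 129 to 166 FPKM in Ins2-AKITA mice, and erythroid markers to 35.1 to 67.7 and 25.2 to 32.4 FPKM, with median log2 fold changes of -0.66 and -1.09 that turned to 0.93 and 0.30 as TPM. Of 65 marker genes tested over 12 lists, 0 passed an adjusted p of 0.05 (limma), and at an unadjusted p under 0.05 there were 7 lower, Tagln and Cdh5 among them, and 1 higher, the astrocyte gene Aldh1l1. In bulk samples such as these, fewer cells of a type and less RNA per cell cannot be told apart. Which cells the RNA of the receptor genes came from was not tested.

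**Figure D1:**
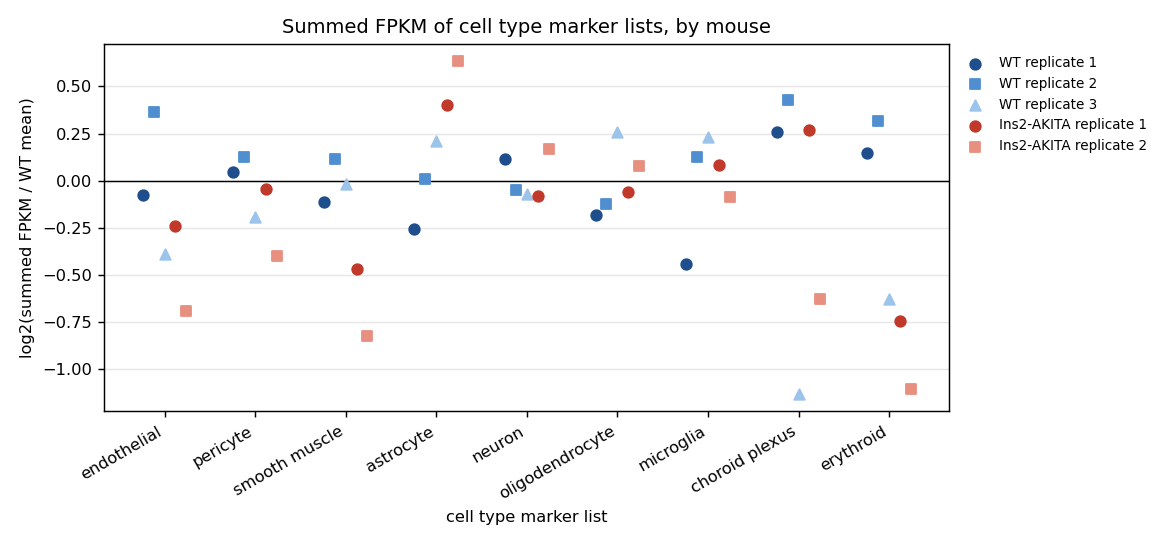
Summed FPKM of 9 cell type marker lists in each mouse, drawn as log2 of the ratio to the WT mean, with 1 point per mouse and no error bars. The astrocyte sums of both Ins2-AKITA mice lie above those of all 3 WT mice, the smooth muscle and erythroid sums of both lie below, and the endothelial sum is lowest in Ins2-AKITA mouse 2 (356 FPKM) and highest in WT mouse 2 (738 FPKM).

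The receptor genes differed widely in level, from Lrp1 to Cd36. The mean over the 5 mice was 110 FPKM ± 17.1 (SD) for Lrp1, 51.5 ± 8.77 for Lrp8, 24.4 ± 7.95 for Tfrc and 23.9 ± 10.6 for Scarb1. Below them came Igf2r at 10.6 ± 3.11, Stra6 at 5.84 ± 3.49 and Lepr at 5.72 ± 3.86 FPKM. Ager had a mean of 1.60 and Cd36 of 0.271 FPKM, and each was listed at 0 in 1 mouse. Among the 16286 genes with a mean of at least 1 FPKM, Lrp1 lay at percentile 95.9 of the mean level, Lrp8 at 89.4, Tfrc at 75.3, Scarb1 at 74.7 and Igf2r at 51.4. Stra6 lay at percentile 34.6, Lepr at 34.1 and Ager at 7.74.

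Neighbours in this order were compared within each mouse as a difference of log2(FPKM + 1). For 5 of the 8 neighbouring pairs the higher gene was higher in 5 of 5 mice: Lrp1 over Lrp8 by 1.08 ± 0.16 (SD), Lrp8 over Tfrc by 1.09 ± 0.63, Scarb1 over Igf2r by 1.03 ± 0.33, Igf2r over Stra6 by 0.85 ± 0.40, and Lepr over Ager by 1.36 ± 1.08. Each of these pairs gave p = 0.0625 in an exact two-sided sign-flip permutation test, which is the smallest p that 5 mice allow, and an adjusted p of 0.1 over the 8 pairs. Tfrc and Scarb1 did not differ beyond their spread (0.08 ± 0.85, exact p = 0.938), nor did Stra6 and Lepr (0.07 ± 0.56, exact p = 0.813). Ager exceeded Cd36 in 4 of 5 mice by 0.88 ± 0.86 (exact p = 0.125). In the 3 WT mice alone Tfrc and Scarb1 changed places, and 7 of the 8 neighbouring pairs kept their order.

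**Figure D2:**
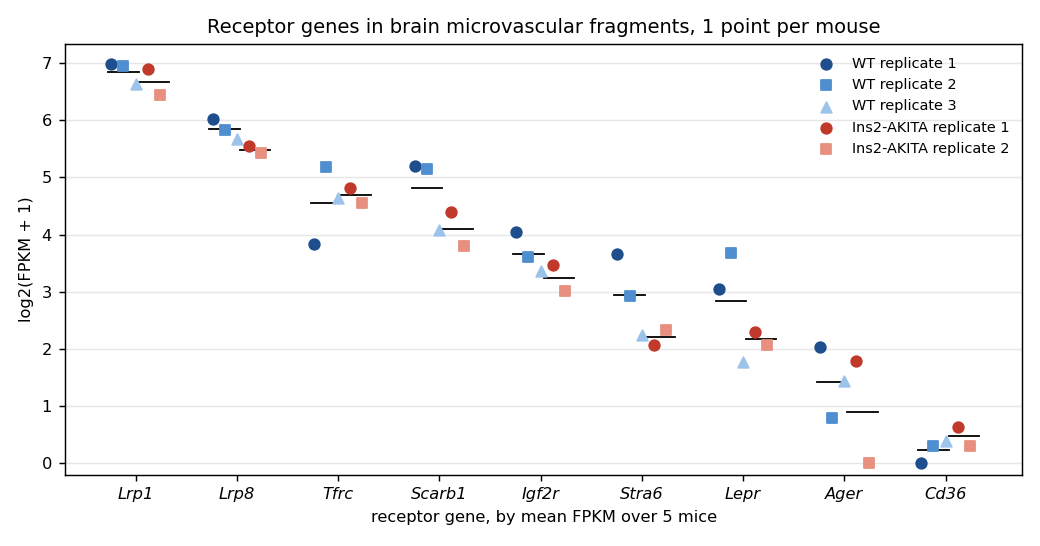
Level of the 9 receptor genes as log2(FPKM + 1), ordered by mean FPKM, with 1 point per mouse and a short line at the mean of each genotype. Lrp1 and Lrp8 lie above the other genes in all 5 mice, Ager and Cd36 lie lowest by mean, and Lrp8 is the only gene for which both Ins2-AKITA points lie below all 3 WT points.

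Between genotypes, none of the receptor genes passed the test. In FPKM as deposited, the mean log2 value of the Ins2-AKITA mice was below that of WT for 7 of the 8 receptors tested. Among these 7 were Lrp8, Scarb1 and Stra6. For the iron receptor Tfrc the Ins2-AKITA mean was slightly above that of WT. As TPM the sign turned for all 7, but the typical gene moved up as well, from a median of -0.03 to 1.07 over the genes tested. The test was limma on log2(FPKM + 1) over the 16286 genes with a mean of at least 1 FPKM, which left out Cd36 and kept the other 8. Of these 8 receptors, 0 had an adjusted p under 0.05 in either direction, where 0.0246% of all genes tested did (0 higher and 4 lower). The smallest adjusted p among the receptors was 0.896, and the smallest unadjusted p was 0.108, for Lrp8. At an unadjusted p under 0.05 the count was also 0 of 8 receptors, beside 4.46% of all genes (1.53% higher and 2.93% lower). This balance moved with the scaling, from 249 higher and 477 lower genes as deposited to 530 and 196 at the same endothelial marker level and 1808 and 105 as TPM. The receptor count moved with 1 mouse: without WT mouse 3, Scarb1, Lepr and Stra6 had estimates below 0 with an unadjusted limma p under 0.05, which made 3 of 8 receptors beside 8.61% of all genes. Their adjusted limma p then ran from 0.556 to 0.576. The 4 genes called lower, named here after their values were seen, were the small nucleolar RNAs Snora47 and SNORA13 and the gene models Gm14889 and Gm17592, all listed at 0 in both Ins2-AKITA mice.

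The log2 fold changes (Ins2-AKITA minus WT) of the 8 receptors ran from -0.74 to 0.13 with a median of -0.48, beside a median of -0.03 over all genes tested. A log2 fold change below 0 was found for 7 of 8 receptors and for 53.5% of all genes. Only for Lrp8 did both Ins2-AKITA mice lie below all WT mice, 1 of 8 receptors beside 10.3% of all genes, and for 0 of 8 did both lie above, beside 9.24%. The receptor median moved with the scaling and turned sign as TPM. With every mouse set to the same endothelial marker level it was -0.20, while that of all genes was 0.31. As TPM the medians were 0.83 and 1.07. The TPM scaling multiplied FPKM by 0.077, 0.082 and 0.28 in WT and by 0.25 and 0.65 in Ins2-AKITA mice. Since 1 was added after scaling, low genes moved less than abundant ones. Places relative to the median of all genes as TPM thus depend on the level of a gene. At the same sum over nuclear protein-coding genes the medians were -0.50 and -0.07. By median-ratio scaling, which evens out the typical gene between mice, they were -0.46 and -0.01. Each receptor kept its sign under both of these. As deposited and under all 4 other scalings the receptor median lay below that of all genes. The difference was -0.44 as deposited, -0.51 at the same endothelial level, -0.24 as TPM, -0.43 at the same protein-coding sum and -0.45 by median-ratio scaling. Single mice weighed heavily, as WT mouse 1 had the highest value for 6 of the 8 receptors and Ins2-AKITA mouse 2 the lowest for 5 of the 8.

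**Figure D3:**
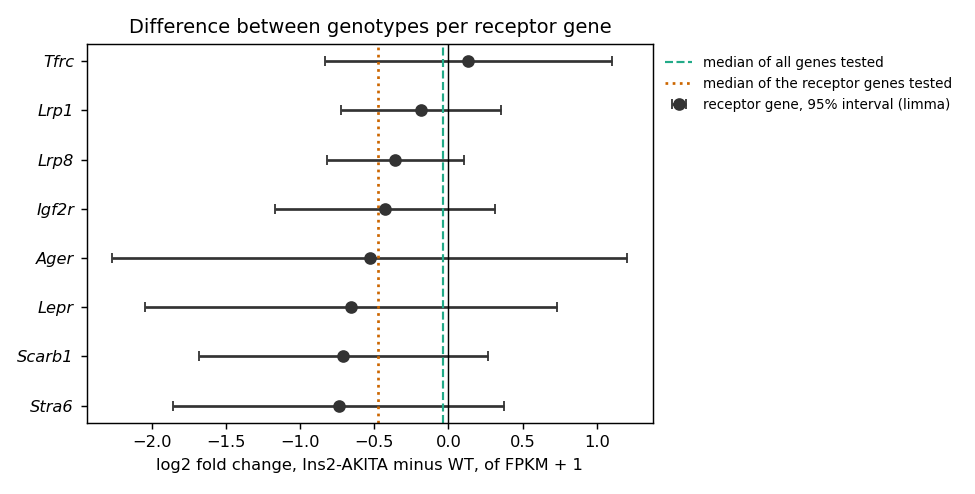
Log2 fold change (Ins2-AKITA minus WT) of FPKM + 1 for the 8 receptor genes tested, with points for the limma estimate and bars for its 95% interval, a dashed line at the median of all genes tested (-0.03) and a dotted line at the receptor median (-0.48). All 8 intervals cross 0.

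Tfrc lies at chr16:32609006-32632880 on the plus strand (NCBIM37, ENSMUSG00000022797). WT mice had 13.2, 35.2 and 24.05 FPKM, whereas Ins2-AKITA mice had 27.2 and 22.5 FPKM. Both Ins2-AKITA values fell inside the WT range, and the WT mice themselves spread by 2.66-fold, with WT mouse 1 lowest. Its log2 fold change was 0.13 (SE 0.40, 95% interval -0.83 to 1.10, limma adjusted p = 0.966, exact permutation p = 0.9), and it became -0.23 without WT mouse 1, 0.51 at the same endothelial marker level and 1.49 as TPM. The interval therefore left room for a change of either sign.

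The mRNA of Tfrc is known to be controlled by iron through iron-responsive elements, short hairpins in its 3′ UTR. Iron regulatory proteins, Aco1 and Ireb2 among them, bind the hairpins when iron is scarce and protect the mRNA, whereas the same kind of hairpin in the 5′ UTR of ferritin mRNA blocks its translation. The annotated UTRs were searched, in the sense direction, for a C followed by a stem of 5 bases, the loop CAGTGN and 5 bases able to pair with the stem, G with T included. Tfrc held 4 such elements in its 3′ UTR, and it was the only one of 19915 genes with a 3′ UTR to hold 4 or more, where 0.623% held at least 1. In 5′ UTRs, 0.166% of 19854 genes held at least 1, Fth1, the ferritin heavy chain, among them. No other receptor gene held the pattern in a UTR, which says only that these letters are not in those windows. The elements are shown because the Tfrc and Fth1 mRNAs share this pattern, while the bases of their stems and flanks differ. They are from the NCBIM37 transcripts, 5′ to 3′ with the loop in capitals.
Tfrc 1: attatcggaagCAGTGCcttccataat
Tfrc 2: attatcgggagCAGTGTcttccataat
Tfrc 3: tatatcggagaCAGTGAtctccatatg
Tfrc 4: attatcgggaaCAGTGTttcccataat
Fth1 1: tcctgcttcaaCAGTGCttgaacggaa
The Tfrc elements lie on the plus strand at chr16:32631306-32631332, chr16:32631685-32631711, chr16:32631750-32631776 and chr16:32631797-32631823, and the Fth1 element at chr19:10057223-10057249, also on the plus strand.

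The other genes of iron handling did not pass the test either. All 16 genes of that list were tested, 0 were called in either direction, 0 had an unadjusted p under 0.05, and 8 had log2 fold changes above and 8 below 0, with a median of 0.03. The split moved with the scaling, to 14 above and 2 below 0 at the same endothelial marker level (median 0.41) and 16 above as TPM (median 1.203). With every mouse set to the same sum over nuclear protein-coding genes, the median was -0.01. Fth1, which stores iron and carries the element shown, was the most abundant of them, at 1470, 999 and 1162 FPKM in WT and 1058 and 1348 FPKM in Ins2-AKITA mice. Its genotypes overlapped and its log2 fold change was 0.00 to 2 decimals (SE 0.28, limma adjusted p = 1.00). Cp, the ferroxidase ceruloplasmin, had 41.7, 68.8 and 33.1 FPKM in WT and 38.4 and 24.1 FPKM in Ins2-AKITA mice (log2 fold change -0.57, limma adjusted p = 0.896). Steap2, a metalloreductase, had 9.02, 7.32 and 4.03 FPKM in WT and 3.97 FPKM in each of the Ins2-AKITA mice, just below the lowest WT value. Among the iron regulatory proteins that bind the hairpins, Aco1 had 9.90 to 10.9 FPKM in WT and 10.2 and 11.7 FPKM in Ins2-AKITA mice, and Ireb2 5.70 to 8.74 and 6.83 and 10.3 FPKM, with overlapping genotypes for both.

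Lrp1 and Lrp8, the most abundant receptors of the set, are endocytic receptors of the LDL receptor family. Lrp1 (chr10:126975217-127058204, minus strand, ENSMUSG00000040249) had 125, 122 and 97.6 FPKM in WT and 118 and 85.8 FPKM in Ins2-AKITA mice. Ins2-AKITA mouse 1 lay within the WT range and mouse 2 below it. Its log2 fold change was -0.18 (SE 0.22, 95% interval -0.72 to 0.36, limma adjusted p = 0.913, exact permutation p = 0.5), and the sign turned at the same endothelial marker level (0.20), as TPM (1.48) and without Ins2-AKITA mouse 2 (0.04). Lrp1 overlaps Gm16217 on the opposite strand, at 8.78, 5.79 and 4.51 FPKM in WT and 4.54 and 2.01 FPKM in Ins2-AKITA mice.

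Lrp8 (chr4:107474866-107549445, plus strand, ENSMUSG00000028613), also known as the apolipoprotein E receptor 2 and a receptor for reelin, had 64.1, 55.7 and 50.0 FPKM in WT and 45.7 and 41.8 FPKM in Ins2-AKITA mice. All WT values were above both Ins2-AKITA values, with a gap of a few FPKM between the groups. The log2 fold change was -0.36 (SE 0.19, 95% interval -0.82 to 0.10, limma adjusted p = 0.896, exact permutation p = 0.2), and it was 0.02 at the same endothelial marker level and 1.24 as TPM. At the same endothelial level the rescaled values of 64.9, 37.8 and 52.6 FPKM in WT overlapped those of 46.01 and 57.5 FPKM in Ins2-AKITA mice. This scaling evens out endothelial markers only, and the share of Lrp8 RNA from endothelial cells is not known from these data. The summed endothelial markers of the Ins2-AKITA mice were 485 and 356 FPKM as deposited. Lrp8 overlaps B230314M03Rik and 4930430J20Rik on the opposite strand, each entry at 0 to 7.04 FPKM.

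**Figure D4:**
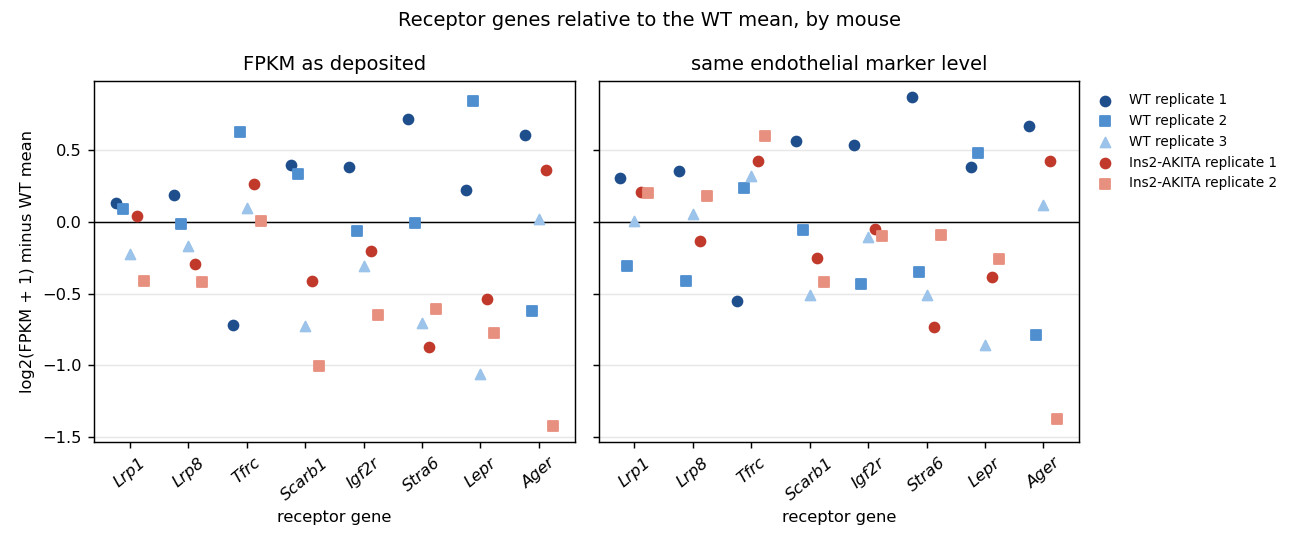
Level of the 8 receptor genes tested in each mouse as log2(FPKM + 1) minus the mean of the 3 WT mice, on the left from FPKM as deposited and on the right with every mouse rescaled to the same endothelial marker level, with 1 point per mouse and no error bars. On the left both Lrp8 points of Ins2-AKITA mice (-0.30 and -0.42) lie below all WT points, whereas on the right (-0.13 and 0.18) they lie within the WT range.

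The wider LDL receptor family and its chaperone shared the sign of Lrp1 and Lrp8 but passed no threshold after adjustment. Of 13 listed genes 12 were tested, 10 had a log2 fold change below 0, the median was -0.29 (0.07 at the same endothelial marker level and 1.03 as TPM), and 0 were called in either direction. Lrp2 (megalin) was not tested, with 0.102 to 0.443 FPKM. Lrp3, a family member of poorly known function, had 28.0, 32.2 and 28.7 FPKM in WT and 21.0 and 20.1 FPKM in Ins2-AKITA mice, without overlap. Its log2 fold change was -0.50 (SE 0.19, exact permutation p = 0.1, the smallest that these mice allow), and it was the only gene of the list with an unadjusted p under 0.05 in limma (p = 0.0351, adjusted p = 0.896). Lrpap1, the chaperone that keeps ligands off new receptors of the family in the secretory pathway, had 86.1, 79.8 and 56.9 FPKM in WT and 56.4 and 42.7 FPKM in Ins2-AKITA mice. The genotypes were separated by less than 1 FPKM, and the log2 fold change was -0.57 (SE 0.25, limma adjusted p = 0.896). Lrp5, a Wnt co-receptor, was the other family member with both Ins2-AKITA mice (11.0 and 8.25 FPKM) below all WT mice (11.5 to 12.9 FPKM), which made 3 of 12 tested genes beside 10.3% of all genes.

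Igf2r (chr17:12875272-12962530, minus strand, ENSMUSG00000023830) had 15.5, 11.1 and 9.23 FPKM in WT and 10.04 and 7.09 FPKM in Ins2-AKITA mice. Ins2-AKITA mouse 1 lay within the WT range and mouse 2 below it. The log2 fold change was -0.43 (SE 0.31, 95% interval -1.17 to 0.32, limma adjusted p = 0.897, exact permutation p = 0.4), against -0.08 at the same endothelial marker level and 0.84 as TPM. The gene overlaps Airn, a long non-coding RNA on the opposite strand, which had 11.99, 11.3 and 6.31 FPKM in WT and 5.31 and 10.9 FPKM in Ins2-AKITA mice. The library kit keeps the strand, but whether the counting used it is not stated in the sources used here, so reads of both genes may be mixed. This also holds for the opposite-strand overlaps of Lrp1, Lrp8 and Stra6.

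Lepr (chr4:101390009-101487957, plus strand, ENSMUSG00000057722) had the widest spread among WT mice of the 8 receptors tested, at 7.30, 11.8 and 2.42 FPKM. The Ins2-AKITA mice had 3.91 and 3.18 FPKM, both above WT mouse 3. On the longest annotated transcript the values correspond to 21.7 to 83.1 fragments, an estimate in which counting error is small beside the 4.86-fold range among WT mice. For Lepr the log2 fold change was -0.66 (SE 0.57, 95% interval -2.04 to 0.73, limma adjusted p = 0.902, exact permutation p = 0.5), against -0.32 at the same endothelial marker level and 0.51 as TPM. Choroid plexus markers, summed, were also lowest in WT mouse 3, at 1834, 2067 and 699 FPKM in WT and 1848 and 992 FPKM in Ins2-AKITA mice. Their part in the spread of Lepr was not tested.

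Scarb1 and Stra6 take up lipid and retinol. Scarb1 (chr5:125757457-125821464, minus strand, ENSMUSG00000037936) had 35.9, 34.4 and 15.9 FPKM in WT and 20.1 and 13.0 FPKM in Ins2-AKITA mice. WT mice 1 and 2 were high, while WT mouse 3 lay between the Ins2-AKITA mice. Scarb1 had a log2 fold change of -0.71 (SE 0.40, 95% interval -1.69 to 0.27, limma adjusted p = 0.896, exact permutation p = 0.3), against -0.34 at the same endothelial marker level and 0.81 as TPM.

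Stra6 (chr9:57911595-58001803, plus strand, ENSMUSG00000032327) had 11.6, 6.62 and 3.71 FPKM in WT and 3.19 and 4.05 FPKM in Ins2-AKITA mice. Here too WT mouse 3 lay between both Ins2-AKITA mice, and WT mouse 1 was highest. Stra6 had a log2 fold change of -0.74 (SE 0.46, 95% interval -1.86 to 0.38, limma adjusted p = 0.896, exact permutation p = 0.3), against -0.41 at the same endothelial marker level and 0.49 as TPM. On the longest annotated transcript the values correspond to 10.3 to 38.4 fragments. Stra6 overlaps Ccdc33 on the opposite strand, which had 0 to 2.34 FPKM, and Gm16131 on the same strand, which had 0 to 0.812 FPKM.

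Cd36 (chr5:17287508-17394777, minus strand, ENSMUSG00000002944) was listed at 0, 0.239 and 0.317 FPKM in WT and at 0.559 and 0.241 FPKM in Ins2-AKITA mice. The genotypes overlapped (exact permutation p = 0.4). These values correspond to 0 to 3.03 fragments on the longest annotated transcript, and 3 fragments would give 0.314 to 0.794 FPKM, so that a difference was not detectable at this depth. Such fragment numbers cover counting error only.

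Genes that handle retinoids and fatty acids inside the cell had a median log2 fold change of 0.14, above 0 for 10 of 14 tested. Of these genes, 0 were called and 0 had an unadjusted p under 0.05 (limma). The list median was 0.51 at the same endothelial marker level and 0.92 as TPM. The TPM value lay below the median of all genes, a place that depends on the level of the genes. Fabp5, a fatty acid binding protein, was the most abundant, at 127, 147 and 206 FPKM in WT and 170 and 203 FPKM in Ins2-AKITA mice. Acsl1, which activates long-chain fatty acids, had 11.2, 20.8 and 13.1 FPKM in WT and 27.1 and 18.02 FPKM in Ins2-AKITA mice (log2 fold change 0.57, limma adjusted p = 0.896). Aldh1a1, which makes retinoic acid, had 24.8, 37.3 and 63.6 FPKM in WT and 51.0 and 62.2 FPKM in Ins2-AKITA mice (log2 fold change 0.52, limma adjusted p = 0.897). All 3 genes had overlapping genotypes.

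Ager (chr17:34734807-34737879, plus strand, ENSMUSG00000015452), the receptor for the glycated proteins that build up with high glucose, was close to the limit of detection. It had 3.08, 0.740 and 1.72 FPKM in WT mice, and 2.45 FPKM in Ins2-AKITA mouse 1, whereas it was listed at 0 in Ins2-AKITA mouse 2. The Ins2-AKITA mice thus lay on both sides of the WT median. The values correspond to about 1.62 to 8.11 fragments where any were found, and 3 fragments would give 1.41 FPKM in the mouse listed at 0. The log2 fold change was -0.53 (SE 0.72, 95% interval -2.27 to 1.21, limma adjusted p = 0.921, exact permutation p = 0.6), and its sign turned without Ins2-AKITA mouse 2 (0.36) and as TPM (0.02). The value was -0.48 at the same endothelial marker level, and -1.75 with a pseudocount of 0.1 in place of 1.

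Transcripts of the receptors' ligands were measured in the same libraries, though ligands that reach the vessel with the blood are made elsewhere. Of 19 listed ligands 13 were tested, 0 were called in either direction, 0 had an unadjusted p under 0.05, and the median log2 fold change was -0.16 (0.22 at the same endothelial marker level and 1.37 as TPM). Apoe, a ligand of Lrp1 and Lrp8, was the most abundant, at 1381, 1211 and 1122 FPKM in WT and 1204 and 1370 FPKM in Ins2-AKITA mice. S100b, an Ager ligand made by astrocytes, had 86.5, 87.2 and 136 FPKM in WT and 118 and 156 FPKM in Ins2-AKITA mice (log2 fold change 0.43, limma adjusted p = 0.896). Thbs1, thrombospondin 1, a ligand of Lrp1 and Cd36, had 3.89, 2.83 and 2.00 FPKM in WT and 1.10 and 1.59 FPKM in Ins2-AKITA mice, without overlap (log2 fold change -0.71, limma adjusted p = 0.896). The Ager ligand S100a8 and the lipoprotein Apob were listed at 0 in all 5 mice.

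Other receptors and carriers listed for brain endothelium had mostly negative estimates as well, with 7 of 9 log2 fold changes below 0, a median of -0.21 (0.18 at the same endothelial marker level and 1.33 as TPM), 0 called and 0 with an unadjusted p under 0.05 (limma). Folr1, 1 of these 9 genes with a log2 fold change of -0.04, was also used here as a choroid plexus marker. Bsg (basigin), used for antibody delivery to the brain, was the most abundant, at 250, 510 and 319 FPKM in WT and 370 and 292 FPKM in Ins2-AKITA mice. Igf1r, the type 1 insulin-like growth factor receptor, had 51.8, 55.9 and 42.5 FPKM in WT and 44.4 and 36.8 FPKM in Ins2-AKITA mice (log2 fold change -0.29, limma adjusted p = 0.897). Cd320, the transcobalamin receptor, had 7.62, 5.41 and 8.58 FPKM in WT and 2.84 and 6.45 FPKM in Ins2-AKITA mice (log2 fold change -0.60, limma adjusted p = 0.896). All 3 had overlapping genotypes. For Slc3a2 both Ins2-AKITA mice (37.1 and 30.7 FPKM) lay below all WT mice (37.5 to 40.3 FPKM), with a log2 fold change of -0.21 (limma adjusted p = 0.902). This was 1 of 9 genes beside 10.3% of all genes, and for 0 of 9 did both lie above, beside 9.24%.

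Genes of the machinery that takes up and sorts the receptors had values on both sides of 0. Of 18 coat and adaptor genes 12 had a log2 fold change above 0, with a median of 0.15, and 0 were called. The list median was 0.11 to 1.68 under the 4 other scalings. The median of all genes was itself above 0 at the same endothelial marker level (0.31) and as TPM (1.07). Ap2b1, a subunit of the AP-2 adaptor that links cargo to clathrin, had 37.9, 38.5 and 45.8 FPKM in WT and 68.0 and 55.6 FPKM in Ins2-AKITA mice, without overlap. Ap2b1 had a log2 fold change of 0.59 (SE 0.20, exact permutation p = 0.1) and was the only gene of this list with an unadjusted p under 0.05 in limma (p = 0.0232, adjusted p = 0.896). Ap2s1, another AP-2 subunit, had 36.1, 40.3 and 48.3 FPKM in WT and 62.3 and 53.7 FPKM in Ins2-AKITA mice (log2 fold change 0.48, limma adjusted p = 0.896). Both Ins2-AKITA mice were above all WT mice for 5 of the 18 genes, Cltc, Ap2a2, Ap2b1, Ap2m1 and Ap2s1, beside 9.24% of all genes. The most abundant gene of the list, Epn1 (epsin 1), overlapped, at 247, 196 and 230 FPKM in WT and 227 and 359 FPKM in Ins2-AKITA mice. Most of these genes are used by all cell types. The summed astrocyte markers were also higher in both Ins2-AKITA mice than in all WT mice, and their part in these values was not tested.

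Of 19 endosomal sorting and recycling genes, 12 had a log2 fold change above 0, with a median of 0.14, 0 called and 0 with an unadjusted p under 0.05 (limma). The list median was 0.10 to 1.51 under the 4 other scalings, of which 2 also moved the median of all genes above 0 (0.31 and 1.07). Rab7, a GTPase of late endosomes, was the most abundant, at 104, 105 and 119 FPKM in WT and 109 and 144 FPKM in Ins2-AKITA mice. Vps35, a retromer subunit that returns receptors from endosomes, had 16.8, 24.4 and 26.1 FPKM in WT and 28.5 and 33.4 FPKM in Ins2-AKITA mice (log2 fold change 0.47, limma adjusted p = 0.896). Rab11b, a GTPase of recycling endosomes, had 48.1, 38.3 and 47.3 FPKM in WT and 48.9 and 77.5 FPKM in Ins2-AKITA mice (log2 fold change 0.46, limma adjusted p = 0.896). Both Ins2-AKITA mice were above all WT mice for 3 of the 19 genes, Rab11b, Vps35 and the sorting nexin Snx1, beside 9.24% of all genes. They were below all WT mice for 1, Ehd1 (17.8 and 16.1 FPKM against 19.5 to 23.0 FPKM), which also acts in recycling, beside 10.3% of all genes.

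**Figure D5:**
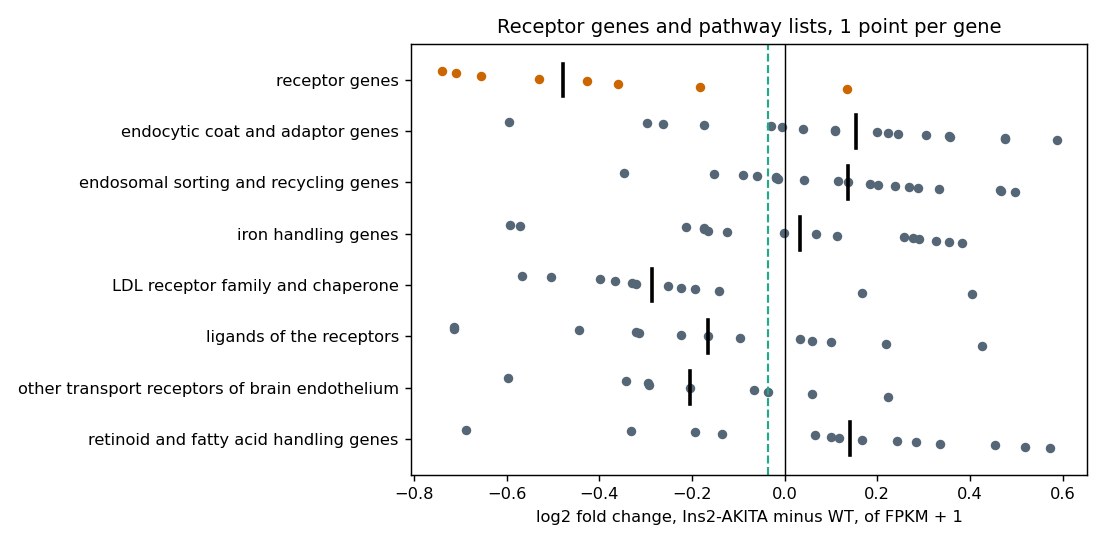
Log2 fold change (Ins2-AKITA minus WT) of FPKM + 1 for each tested gene of the receptor set and of 7 pathway lists, with 1 point per gene, a short black line at each list's median and a dashed line at the median of all genes tested (-0.03). Medians of the receptor genes (-0.48), the LDL receptor family (-0.29), other transport receptors (-0.21) and ligands (-0.16) lie below that of all genes, and those of coat and adaptor (0.15), endosomal (0.14), retinoid and fatty acid (0.14) and iron genes (0.03) lie above it. At the same endothelial marker level the median of all genes was 0.31, and the LDL receptor family (0.07), other transport receptors (0.18) and ligands (0.22) lay below it. As TPM, relative to the median of all genes, other transport receptors (0.26) and ligands (0.30) lay above and retinoid and fatty acid genes (-0.15) below. These TPM places depend on the level of the genes, since 1 was added after scaling. At the same protein-coding sum these differences were -0.18, -0.14 and 0.17, with the signs found as deposited.

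The genes with profiles most like those of the receptors were found by the root-mean-square difference of centred log2(FPKM + 1) over the 5 mice, among 16285 genes for each receptor. With 5 mice and so many genes, close profiles are common, and the values describe these libraries only. Lrp8 was nearest to Mtap7d1 (0.02) and Ccdc64 (0.03), Lrp1 to Ubp1 and Acadvl (both 0.02), and Igf2r to Jak3 (0.02) and Akap8 (0.03). Tfrc, low in WT mouse 1 and high in WT mouse 2, was nearest to Dcxr (0.05) and Egfr (0.07). Egfr had 6.30, 16.9 and 11.6 FPKM in WT and 12.6 and 9.49 FPKM in Ins2-AKITA mice. Scarb1 was nearest to Ap4m1 (0.06) and Lor (0.07), and Stra6 to Cebpb and Ccna2 (both 0.07). Lepr was nearest to Rad51ap2 (0.08) and Slc13a4 (0.11), and Slc13a4, a sulfate transporter, had 10.1, 19.0 and 3.62 FPKM in WT and 5.84 and 4.13 FPKM in Ins2-AKITA mice. The least close neighbours, beside that of Lepr, were those of Ager, BY080835 (0.10) and Amh (0.11), both listed at 0 in Ins2-AKITA mouse 2 as Ager was.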

How the data were processed

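RNA of brain microvascular fragments from 3 WT and 2 heterozygous Ins2-AKITA mice was sequenced, 1 library per sample. The authors mapped reads to NCBIM37 with TopHat2 2.0.4, removed duplicates with Picard 1.92 and tested with Cufflinks 2.2.1. The deposited values are FPKM per Ensembl gene and sample. The program that made them and the Ensembl release are not given in the sources used here. Of 37982 identifiers, 37197 matched the GENCODE vM1 annotation of NCBIM37, and values of rows with the same symbol were summed (34615 symbols). Genes with a mean of at least 1 FPKM were tested on log2(FPKM + 1), a scale that understates changes of low genes, with limma 3.58.1 in R 4.3.3 (two-sided, trended prior, genotype only, Benjamini-Hochberg over all genes). The script was tested on simulated data. In exact permutation tests, the size of the difference in mean log2 values was set against all 10 splits of the mice, and the smallest possible p was 0.1. Fragments per mouse were estimated from low values of genes with 1 transcript, which were whole within 0.05 for 97.3 to 97.8%. All 9 receptors were named, as were the most abundant gene and the 2 with the smallest p of each pathway list, and the 2 nearest profiles of each tested receptor. Further list genes were named for completeness after their values were seen. The members and lists were chosen with earlier results of these data known. The values of 1 listed gene are not reported here. Tfr2 was matched under its older symbol Trfr2. Samples with the same number were not shown to be paired, since with 2 Ins2-AKITA mice the correlations mirror each other. The p-values measure the spread between these samples. Alternatives covered the pseudocount, filters, scalings, prior variance, row sums, a replicate block and each mouse left out.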

Additional observations from a re-analysis of the deposited data

How the results depend on the processing

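No receptor gene passed an adjusted p of 0.05 under any alternative run. Of 119 recomputed log2 fold changes of single receptors, 107 kept their direction and 12 turned. As TPM, 7 turned: Lrp1 to 1.48, Lrp8 to 1.24, Igf2r to 0.84, Scarb1 to 0.81, Lepr to 0.51, Stra6 to 0.49 and Ager to 0.023. The receptor median was then 0.83, while the median of all genes moved from -0.03 to 1.07. At the same endothelial marker level, which moved the median of all genes to 0.31, Lrp1 turned to 0.20 and Lrp8 to 0.025. Relative to the median of all genes, Lrp1 was at -0.15 as deposited and -0.10 at the same endothelial level, and Lrp8 at -0.32 and -0.28. Both lay above that median as TPM, Lrp1 at 0.41 and Lrp8 at 0.17. These places depend on level, since a scaling multiplies all genes of a mouse alike and 1 was added afterwards. The abundant Lrp1 moved from -0.18 to 1.48, and the low Ager from -0.53 to 0.023. Without WT mouse 1 Tfrc turned to -0.23, and without Ins2-AKITA mouse 2 Lrp1 turned to 0.043 and Ager to 0.36. Leaving out 1 mouse gave receptor medians from -0.63 to -0.25, Lepr values from -1.18 to -0.24, Scarb1 from -1.07 to -0.41, Stra6 from -1.09 to -0.38, Igf2r from -0.65 to -0.20, Lrp8 from -0.44 to -0.27, Lrp1 from -0.41 to 0.043, Ager from -1.42 to 0.36 and Tfrc from -0.23 to 0.45. Where an Ins2-AKITA mouse was left out, the remaining one was assumed to vary like the WT mice. Ager was -1.75 with a pseudocount of 0.1. At an unadjusted p under 0.05, receptors counted 0 as deposited, 3 without WT mouse 3 and 1 (Scarb1) with the replicate number as a block. The count of genes called higher over all genes (0) was 34 without a filter, 58 as TPM, 1 at the same endothelial level, 1 with a constant prior variance and 0 to 10 with 1 mouse left out. The count called lower (4) was 1 without a filter, 2 at a mean of at least 5 FPKM, 30 as TPM, 7 at the same endothelial level, 2 with a constant prior variance and 1 to 6 with 1 mouse left out. The cause of these moves was not tested. With the replicate number as a block, the receptor median was -0.55, 0 receptors were called, and 0 genes were higher and 5 lower. The correlations of deviations between samples with the same number were 0.05 and -0.03. The neighbour order of receptor levels kept 7 of 8 pairs in the WT mice alone. With 2 Ins2-AKITA mice and about 1129592 to 2860100 fragments each, intervals of single receptors were wide, and Ager and Cd36 lay near the limit of detection.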
